A study of Mus musculus with 2 samples.

Results

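The genes described are 9 regulators of the exit of mouse embryonic stem (ES) cells from naive pluripotency: Tcf7l1, Ctnnb1, Gsk3a, Gsk3b, Apc, Zfp281, Zfp706, Mbd3 and Flcn. They were chosen by name as genes known to drive or time this exit, and all 9 were found among the 43629 genes of the count files through the GENCODE M21 annotation. Poly-A RNA was sequenced from Drosha knockout mouse ES cells, and the series title says that the knockout was made with a paired CRISPR/Cas9 approach. The cells came from the blastocyst, had the 129/Ola strain background, were at passage 7, grew in serum with the cytokine LIF and received no treatment. There was 1 group of 2 libraries, called A and B in the titles. The titles number the cells 1 and 2, but both source names carry the number 1, and separate lines, clones or cultures are not stated. The "d5" of the titles is not explained. The spread between A and B may therefore be technical, and p-values here compare 2 libraries and not 2 conditions. Wild-type cells were not analysed here, so no value below is a comparison with them.

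Naive ES cells keep the state of the early epiblast as long as a network of transcription factors stays active, and exit is the loss of that network on the way to lineage choice. Tcf7l1 sits on the promoters and enhancers of the network and represses it, and β-catenin, encoded by Ctnnb1, lifts this repression when it is not destroyed. Gsk3 kinases and Apc mark β-catenin for destruction, Zfp281, Zfp706 and Mbd3 act at chromatin or on transcription, and folliculin (Flcn) keeps the transcription factor Tfe3 out of the nucleus. Drosha makes the first cut in most primary microRNA transcripts.

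Library A held 29264632 gene counts and library B 42322129. A count of 0 allowed up to 0.102 CPM (counts scaled to library size) in A and 0.0711 in B, the level of 3 counts. Such floors, and all intervals given here, cover counting error only. Of 8 ES cell markers, all 8 reached 1 CPM in both libraries, at a median of 727 TPM, a level per length of transcript. Of 12 fibroblast markers, which feeder cells would bring, 6 reached 1 CPM in both, with a median of 0.509 TPM, and none was at 0. Their summed level was 86.9 CPM in A and 83.1 CPM in B, most of it from Thy1 (42.9 and 43.7 CPM) and Col5a1 (21.7 and 22.9 CPM). Of the 10 tested, 3 had log2 ratios of B over A above 0 (Fbn1, Col5a1 and Thy1, at 0.27, 0.074 and 0.023, none called) and 7 below. Of the latter 4 were called lower in B, all with few reads: Col1a2 (-1.67), Col3a1 (-2.24), Dcn (-1.60) and Postn (-1.93). Their part in the values below was not tested. In bulk RNA, fewer cells that express a gene and less RNA of it per cell cannot be told apart. Drosha itself had 4865 reads in A, and in B 7023. Reads were counted over the whole gene and not by exon, so this does not check the knockout label.

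Because the cells carry a Drosha knockout, the seed matches of 4 microRNAs well known in ES cells or in differentiation are shown first. Mature sequences are from RefSeq on GRCm38.p6, with the seed (bases 2 to 8 from the 5′ end) in capitals. The first pair shares 1 seed, that of the miR-17 family is shifted by 1 base, and let-7a has a seed of its own.
mmu-miR-294-3p: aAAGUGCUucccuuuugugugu
mmu-miR-302b-3p: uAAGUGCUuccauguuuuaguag
mmu-miR-17-5p: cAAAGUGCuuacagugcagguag
mmu-let-7a-5p: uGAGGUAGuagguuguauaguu

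The letters searched were AGCACTT (miR-294 and miR-302b), GCACTTT (miR-17) and CTACCTC (let-7a), on the transcript strand of 1 annotated 3′ UTR a gene. AGCACTT and GCACTTT overlap by 6 letters and can lie in 1 stretch. Of the 9 regulators, 2 held any match. Tcf7l1 held 1 let-7a match, and Gsk3b held 1 match for miR-294 and miR-302b. No 3′ UTR of the 9 held the miR-17 letters. Over 20950 genes with a 3′ UTR, 14.4% held AGCACTT, 11.7% GCACTTT and 8.84% CTACCTC. A match is a description of letters, and no match says only that these letters are not in that window. The 2 stretches are given with the match in capitals, at chr6:72627000-72627021 (minus strand) and chr16:38240590-38240611 (plus strand) of GRCm38.
Tcf7l1 3′ UTR: cgggagatatctctCTACCTCt
Gsk3b 3′ UTR: gcgcgggaaagaccAGCACTTa

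The Tcf7l1 match began at base 353 of a 3′ UTR of 982 bases. In the same length of 3′ UTR, 6.38% of 10179 genes held the let-7a letters. The Gsk3b match began at base 35 of a 3′ UTR of 5515 bases, where 51.8% of 577 genes held the letters. The longer window of Gsk3b thus has the match in about as many genes as not. The other long 3′ UTRs, of Apc (3971 bases) and Zfp706 (3909 bases), held none of the 3 strings, while 41.0% of 1475 and 40.4% of 1526 genes held AGCACTT in those lengths.

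RNA of all 9 regulators was present in both libraries, over a 30.1-fold range of TPM. Ctnnb1 was highest and Gsk3b lowest. The median of the 9 was 83.7 TPM, beside a median of 16.9 TPM (quartiles 5.56 and 44.7) over the 12458 protein-coding genes at 1 CPM or more in both libraries, and 8 of the 9 lay above that median. All 9 reached 1 CPM in both libraries, beside 32.0% of all 43629 genes and 57.8% of 21551 protein-coding genes. The 9 took 0.209% of the counts of A and 0.207% of those of B.

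**Figure D1:**
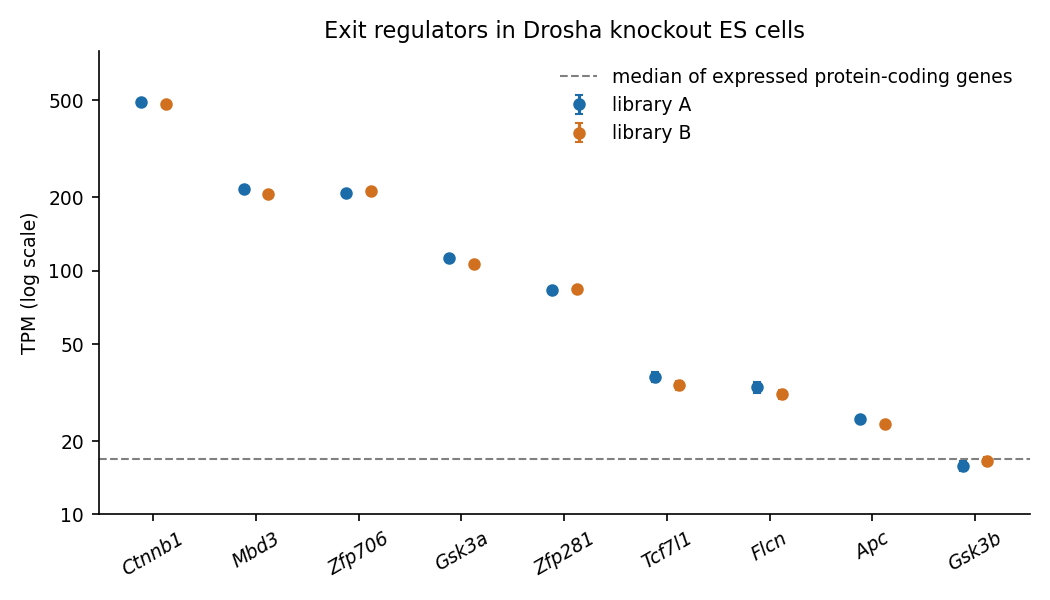
Level of each exit regulator in TPM (log axis) in library A (blue) and library B (orange), with exact Poisson 95% intervals of the counts as error bars, mostly smaller than the points. The dashed line is the median of expressed protein-coding genes, 16.9 TPM: Gsk3b lies just under it at 15.8 and 16.6 TPM, and the other 8 lie above it.

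The RNA levels of Tcf7l1 and Ctnnb1 stood far apart. Tcf7l1 (ENSMUSG00000055799, GRCm38 chromosome 6, 72626378 to 72789254), a TCF/LEF factor that mainly represses, had 1570 reads in A, and in B 2119. That is 36.6 TPM in A and 33.9 in B, a mean of 35.3 ± 1.91 (SD, n = 2), at the 69.3rd percentile of expressed protein-coding genes. Ctnnb1 (ENSMUSG00000006932, chromosome 9, 120929216 to 120960507) encodes β-catenin, which both joins TCF/LEF factors in the nucleus and holds cadherins at cell contacts. It had 27886 and 39870 reads, or 492 and 482 TPM (487 ± 6.50), at the 98.8th percentile. Ctnnb1 was thus 13.4 times Tcf7l1 in A and 14.2 times in B. The values of the 2 genes did not overlap.

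Among the 4 TCF/LEF factors Tcf7l1 was the second by level. Tcf7, which mainly activates with β-catenin, was at 95.8 TPM in A and 90.8 in B, so that the ratio of Tcf7l1 to Tcf7 was 0.382 and 0.374. Tcf7l2 was at 1.81 and 2.11 TPM, a ratio of Tcf7l1 to it of 20.2 and 16.1. Lef1, which rises in primed cells, was at 1.55 and 1.53 TPM, a ratio of 23.6 and 22.2. The repressor thus held an intermediate place in a family in which Tcf7 was above it and Tcf7l2 and Lef1 far below. With the longest annotated transcript in place of the union of exons as length, the ratios to Tcf7l2 were 11.0 and 8.77, those to Lef1 12.7 and 11.9, and those to Tcf7 0.464 and 0.454. The order was the same under both lengths, while the distance to Tcf7l2 and Lef1 shrank by over 1.5 times.

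The family members are related in sequence, which matters for reads that fit more than 1 gene. The longest stretch identical between the coding sequences of Tcf7l1 and Tcf7 was 14 bases, given in capitals with the bases on either side (GENCODE M21 on GRCm38, chr6:72631272-72631305 and chr11:52257006-52257039, both minus strand).
Tcf7l1: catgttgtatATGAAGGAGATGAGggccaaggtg
Tcf7: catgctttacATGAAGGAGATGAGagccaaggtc

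The longest identical stretches of Tcf7l1 with Tcf7l2 and with Lef1 were 23 bases each. Of the 2993 windows of 50 bases in the longest complete coding transcript of Tcf7l1, 0 were found in a transcript of another gene, on either strand. Over the exons of all its transcripts, Tcf7l1 shares 179 bases with the antisense gene Gm15401, which had 1 read in each library. Shares of windows given for the other regulators are for the same kind of transcript.

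The partners of TCF/LEF factors were present as a group. Of 15 matched genes for TCF/LEF factors, co-repressors and co-activators, Tcf7l1 included, all 15 reached 1 CPM in both libraries, at a median of 27.9 TPM. The highest were Aes, a short Groucho family protein, at 152 TPM in A and 137 in B, and the co-repressor Ctbp2 at 101 and 99.9. Among the Groucho co-repressors Tle4 had 70.3 and 67.9 TPM and Tle2 1.4 and 0.980. Pygo1, a β-catenin co-activator, was lowest of the list at 0.879 and 0.857 TPM, below its relative Pygo2 at 40.3 and 40.7.

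β-catenin had a close relative and several partners at cell contacts. Jup, or plakoglobin, had 77.3 TPM in A and 72.3 in B, and Ctnnb1 was 6.36 and 6.67 times higher. The cadherin Cdh1, which β-catenin binds at the membrane, had 285 and 277 TPM, and α-catenin Ctnna1 had 227 and 227. Ctnnb1 was 1.72 and 1.74 times Cdh1. The catenin Ctnnd1 was lowest of the 5 adhesion genes at 13.2 and 12.7 TPM. All 5 reached 1 CPM, with a median of 227 TPM. Ctnnb1 shares 759 exon bases with Ulk4 on the opposite strand, and 18.6% of its 50-base windows also occur in Ulk4. Ulk4 had 71 and 109 reads, 0.266% of those of Ctnnb1.

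The genes that destroy β-catenin were lower than β-catenin itself, and the 2 Gsk3 kinases differed. Gsk3a (ENSMUSG00000057177, chromosome 7, 25228258 to 25237851) had 3573 reads in A, 4897 reads in B, and levels of 113 and 106 TPM (109 ± 4.73), at the 90.4th percentile. Gsk3b (ENSMUSG00000022812, chromosome 16, 38089001 to 38246084) had 1694 and 2595 reads, or 15.8 and 16.6 TPM (16.2 ± 0.573), at the 48.9th percentile. Both encode kinases that phosphorylate β-catenin, and both are targets of the inhibitor used to hold ES cells in the ground state. Gsk3a was 7.15 times Gsk3b in A and 6.40 times in B by TPM, and 7.75 and 6.93 times with the longest transcript as length. Read counts alone, which favour the long Gsk3b transcript, gave ratios of 2.11 and 1.89. Gsk3a was the higher gene in both libraries on each of these scales.

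Their coding sequences shared at most 17 bases in a row, given in capitals. The stretches cross an exon junction in both genes and lie within chr7:25231717-25231845 (minus strand) and chr16:38187930-38191552 (plus strand) of GRCm38.
Gsk3a: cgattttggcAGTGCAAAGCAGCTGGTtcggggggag
Gsk3b: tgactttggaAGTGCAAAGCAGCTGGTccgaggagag

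For Gsk3a 19.4% of 50-base windows occur in another gene, nearly all of them in the antisense gene 9130221H12Rik, which shares 820 exon bases with it. That gene had 130 and 156 reads, 3.38% of those of Gsk3a. For Gsk3b the share was 0.0242%. The sources used here do not give the strand setting, so the antisense gene and Gsk3a may share reads.

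Apc (ENSMUSG00000005871, chromosome 18, 34220924 to 34322552), the scaffold that brings β-catenin to the kinases, had 4331 reads in A, and in B 6043. That is 24.6 and 23.6 TPM (24.1 ± 0.736), at the 59.5th percentile. Its relative Apc2 had 31 and 40 reads, or 0.252 and 0.223 TPM, and reached 1 CPM in A but not in B. Apc was 97.8 times Apc2 in A and 106 times in B. Nearly all RNA of this pair was thus from Apc in both libraries.

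Of the 20 genes for β-catenin turnover, the 3 regulators and Ctnnb1 included, 19 reached 1 CPM in both libraries, with Apc2 the exception, and the median was 41.2 TPM. After Ctnnb1 the highest were Ppp2r1a, the scaffold subunit of the phosphatase PP2A, at 243 TPM in A and 228 in B, and the kinase Csnk1a1, which primes β-catenin for Gsk3, at 129 and 130. Tnks2, a tankyrase that marks axin for removal, had 115 and 119 TPM. The scaffold Axin2, a direct target of β-catenin with TCF/LEF, was low at 3.49 TPM in both libraries, beside 54.8 and 56.6 for its relative Axin1.

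**Figure D2:**
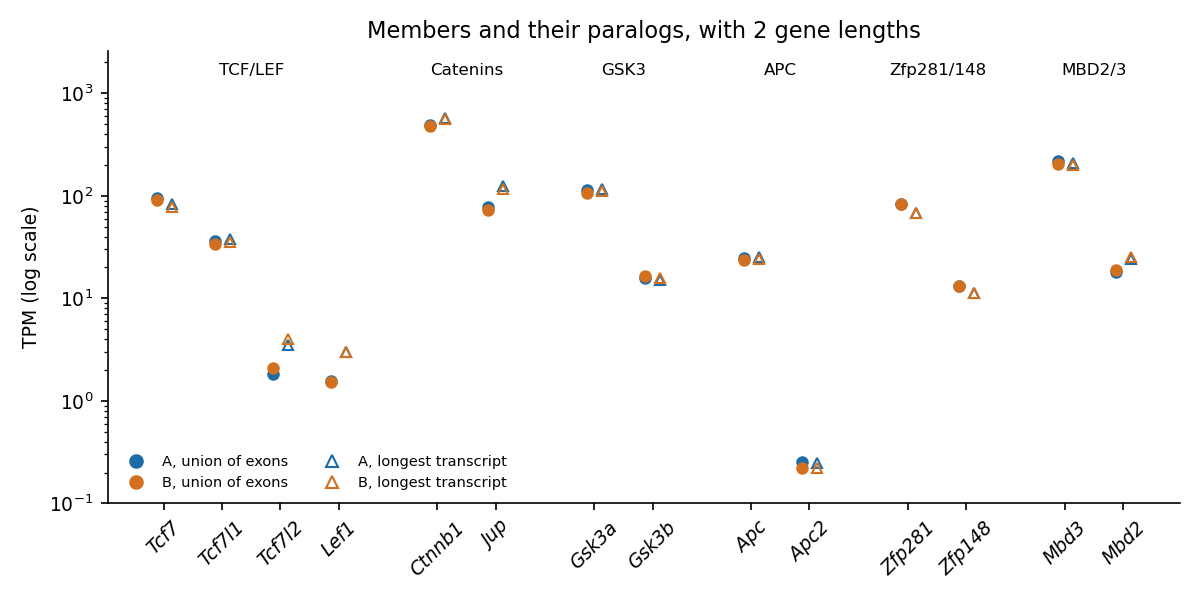
TPM (log axis) of the regulators and their closest relatives in library A (blue) and B (orange), with the union of exons (filled circles) or the longest transcript (open triangles) as gene length. In every family except TCF/LEF the regulator is the highest gene, or, for GSK3, both genes are regulators; in TCF/LEF Tcf7 lies above Tcf7l1.

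The 3 chromatin and transcription regulators all lay high among expressed protein-coding genes. Mbd3 (ENSMUSG00000035478, chromosome 10, 80392539 to 80399550), a core part of the nucleosome remodelling and deacetylase complex NuRD, had 4716 reads in A, 6528 reads in B, and levels of 217 and 206 TPM (212 ± 7.67). Zfp706 (ENSMUSG00000062397, chromosome 15, 36997027 to 37007773), a small zinc finger protein reported to repress Klf4, had 11391 and 16860 reads, or 209 and 213 TPM (211 ± 2.35). Both lay at the 95.9th percentile, and their ranges overlapped: Mbd3 was the higher of the pair in A and Zfp706 in B. Zfp281 (ENSMUSG00000041483, chromosome 1, 136624901 to 136630053), a zinc finger factor that drives the step to the primed state, had 4501 and 6605 reads, or 83.4 and 84.0 TPM (83.7 ± 0.424), at the 86.9th percentile. It was the gene with the smallest SD in TPM of the 9.

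Mbd3 was set beside the other NuRD genes. Its relative Mbd2, which takes its place in a separate form of the complex, had 18.2 TPM in A and 18.8 in B, and Mbd3 was 11.9 and 11.0 times higher (8.67 and 7.98 with the longest transcript). All 17 NuRD genes reached 1 CPM in both libraries, at a median of 95.8 TPM. The histone-binding subunits Rbbp7 (468 and 466 TPM) and Rbbp4 (153 and 156) and the remodelling ATPase Chd4 (187 and 187) were with Mbd3 the highest 4. Mbd3 was 1.16 and 1.10 times Chd4. The lowest were the alternative ATPase Chd3 (3.48 and 3.27 TPM) and Gatad2b (5.24 and 5.65). Mbd3 shared at most 26 identical coding bases with Mbd2, and 0 of its 1613 windows of 50 bases occurred elsewhere.

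Zfp281 was set beside its close relative and genes linked to it. Zfp148, which binds like sequences, had 13.1 TPM in both libraries, and Zfp281 was 6.36 and 6.41 times higher. All 10 genes of the Zfp281 list reached 1 CPM, with a median of 52.8 TPM. The highest were the DNA methylation genes Dnmt3l (310 and 301 TPM) and Dnmt3b (145 and 144), and the histone methyltransferase Ehmt2 had 83.6 and 79.6. The DNA demethylase Tet2 was among the lowest, at 18.7 and 19.2 TPM. For Zfp706, 8.49% of 50-base windows occur in other genes, Gm4262, Gm11127 and Patj among them, so part of its count could be placed in more than 1 gene. The treatment of such reads is not stated.

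Flcn (ENSMUSG00000032633, chromosome 11, 59791408 to 59810016), the folliculin gene, had 1567 reads in A, and in B 2138. That is 33.2 and 31.1 TPM (32.1 ± 1.49), at the 66.8th percentile. Folliculin works with 1 of 2 binding proteins: Fnip1 had 20.6 and 21.7 TPM and Fnip2 19.0 and 18.9. Flcn was 1.61 and 1.43 times Fnip1 and 1.75 and 1.65 times Fnip2. Their levels per length were thus within 2-fold of each other in both libraries.

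Downstream of folliculin, Tfe3 had 40.2 TPM in A and 38.8 in B and Tfeb 20.8 and 17.8, so Tfe3 was 1.94 and 2.18 times Tfeb. The distance between the 2 depended on gene length: with the longest transcript it was 1.17 and 1.32. Of 23 genes for folliculin, the Rag GTPases, the Ragulator complex, mTOR regulation and the Tfe3 family, 22 reached 1 CPM in both libraries, and the median was 31.1 TPM. Tfec was the exception, with 4 reads in A and 3 in B. The highest were Lamtor2 (132 and 137 TPM), Rraga (112 and 117), Lamtor5 (91.0 and 91.2) and Lamtor1 (66.0 and 60.2), parts of the lysosomal platform through which folliculin acts. Nprl3, a subunit of the GATOR1 complex that restrains the Rag GTPases, had 9.34 and 9.18 TPM.

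**Figure D3:**
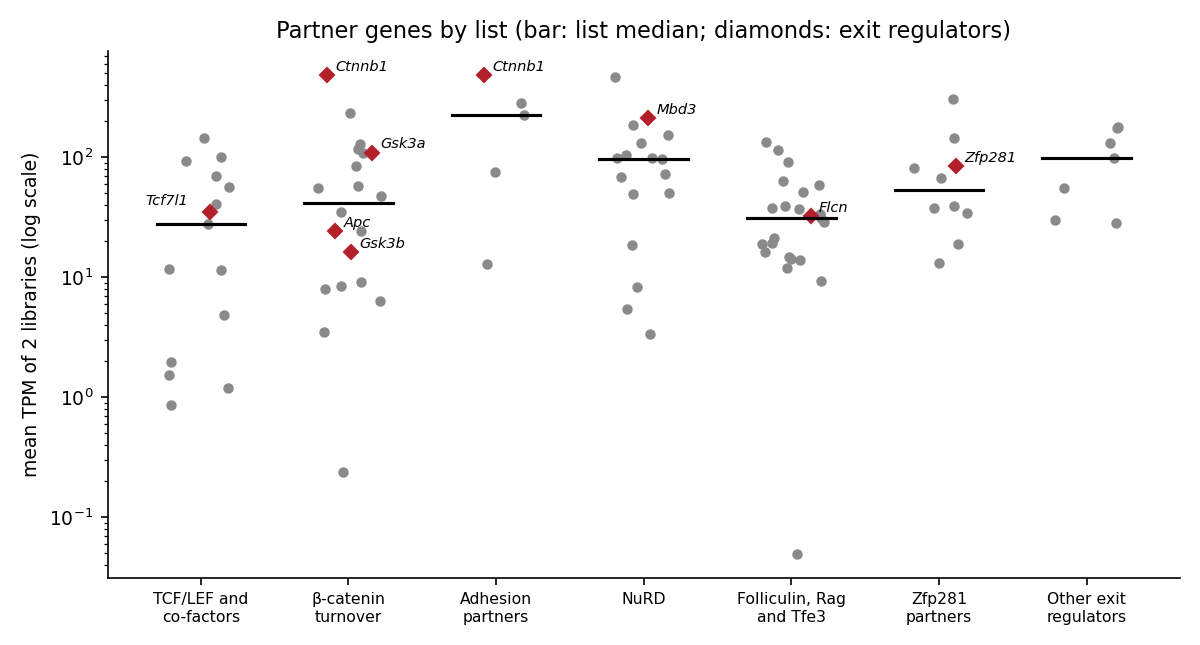
Mean TPM of both libraries (log axis) for each gene of 7 lists, with list medians as bars, the exit regulators as red diamonds and the other genes as grey points. Ctnnb1 is the highest gene of its lists, at 487 TPM, while Flcn lies close to its list median of 31.1 TPM; Zfp706 is in none of these lists.

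By TPM the order of the 9 was Ctnnb1, Mbd3, Zfp706, Gsk3a, Zfp281, Tcf7l1, Flcn, Apc and Gsk3b. Mbd3 and Zfp706 were the neighbours whose values overlapped between libraries. Each other neighbour was separated, by 2.30-fold from Ctnnb1 to Mbd3, 1.93-fold from Zfp706 to Gsk3a, 1.31-fold from Gsk3a to Zfp281 and 2.37-fold from Zfp281 to Tcf7l1. The last steps were 1.10-fold from Tcf7l1 to Flcn, 1.33-fold from Flcn to Apc and 1.49-fold from Apc to Gsk3b. The step from Tcf7l1 to Flcn was narrow. The counting interval of Tcf7l1 in B (32.5 to 35.4 TPM) overlapped that of Flcn in A (31.6 to 34.9). Reads of Tcf7l1 (1570 in A, 2119 in B) and Flcn (1567, 2138) were nearly equal, so this step rests on gene length. With 2 values a gene no exact test of a step can reach 0.05. The order was the same with the longest transcript as length.

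Genes of the naive state, on which several of the regulators act, were present at high levels, and most genes of the later states were present too. All 12 naive genes listed as targets reached 1 CPM in both libraries, at a median of 146 TPM. Nanog, which Tcf7l1 represses, had 618 TPM in A and 607 in B. Esrrb, another target of Tcf7l1 and of Tfe3, had 293 and 287, Zfp42 895.5 and 888, and Klf2 323 and 290.5. The lowest were Nr5a2 (28.3 and 28.0) and Prdm14 (29.6 and 29.6).

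Of 11 genes of the formative and primed states, into which cells exit, 9 reached 1 CPM in both libraries, at a median of 24.4 TPM, above the 16.9 TPM of expressed protein-coding genes. Fgf5 (0.403 TPM in A and 0.477 in B) and Sox3 (0.798 and 0.669) did not. Pou3f1 (4.59 and 4.96 TPM), Sall2 (3.47 and 3.43) and Lef1 (1.55 and 1.53) reached 1 CPM but were low. They lay under the lower quartile of expressed protein-coding genes, 5.56 TPM. The DNA methyltransferase Dnmt3b was the highest at 145 and 144 TPM, followed by Tcf15 (62.6 and 58.6), Dnmt3a (37.7 and 37.9) and Otx2, an early formative factor (27.3 and 27.6). The 7 other exit regulators listed all reached 1 CPM. The ligand Fgf4 (181 and 179 TPM) and the Polycomb cofactor Jarid2 (177 and 174) were highest, and Fgfr1 (28.5 and 27.6) and Ptpn11 (29.8 and 30.5) lowest.

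The 9 regulators differed little between the libraries, as did most expressed genes. By the exact binomial test (two-sided, Benjamini-Hochberg adjusted) 0 of 9 were called at 0.05, beside 2.29% of the 18198 genes tested. These were 417 genes, of which 237 (1.30% of genes tested) were higher in B and 180 (0.989%) lower. At a share of 2.29%, 0 of 9 does not set the regulators apart from other genes. The smallest adjusted p of the 9 was 0.260, and 4 of them had an unadjusted p under 0.05, as did 12.4% of all genes tested. edgeR, run as an exact test at a preset coefficient of variation of 0.1, called 0 of the 9. It called 1 of the 18198 genes tested, so this outcome says little about the regulators. All 9 were within 1.1-fold between libraries, as were 80.1% of expressed genes. At these depths a count below 1567 was not seen for any regulator in either library.

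Of the log2 ratios of B over A, 3 were above 0 and 6 below, and the widest was that of Tcf7l1. Its ratio was -0.092 (95% interval -0.19 to 0.0027, adjusted p = 0.422, exact binomial test). Gsk3b had the highest ratio at 0.090 (0.0014 to 0.18), and Gsk3a was at -0.070 (-0.13 to -0.0076), so the kinases leaned in opposite directions without either passing the test. Zfp706 was at 0.041 (0.0063 to 0.075), Zfp281 at 0.028 (-0.027 to 0.083) and Ctnnb1 at -0.0092 (-0.031 to 0.013). Apc was at -0.044 (-0.10 to 0.012), Mbd3 at -0.056 (-0.11 to -0.0016) and Flcn at -0.077 (-0.17 to 0.018). The median of the 9 was -0.044, beside -0.00084 over all genes tested.

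**Figure D4:**
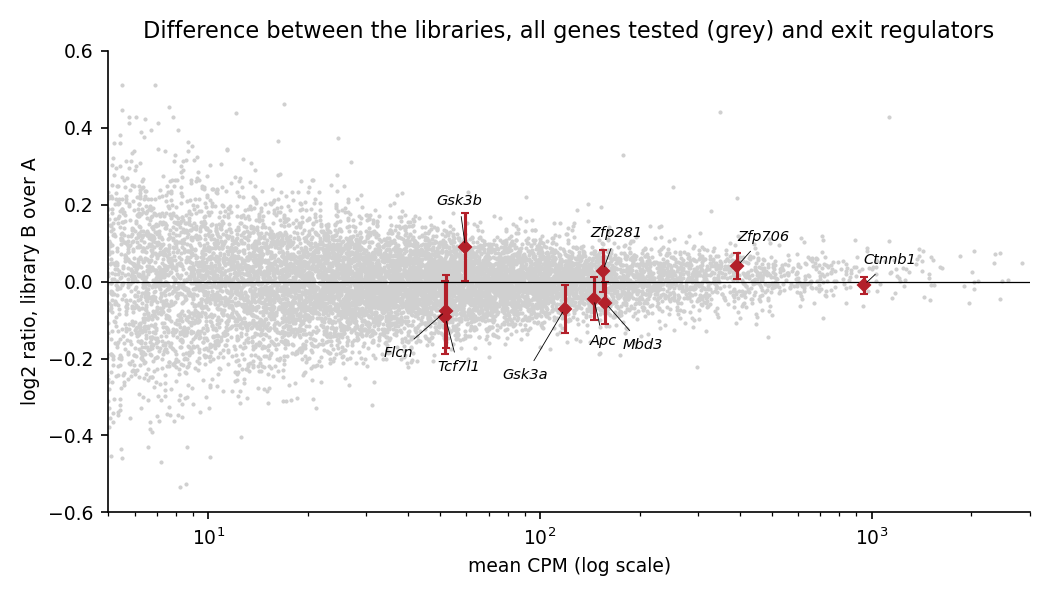
Log2 ratio of library B over A against mean CPM (log axis) for genes tested (grey) and the exit regulators (red, with exact 95% intervals). The 9 lie between -0.092 and 0.090, inside the cloud of other genes of like level.

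The ratios moved with base composition. Among genes with at least 100 reads the median log2 ratio was 0.039 in the fifth of genes lowest in GC content and -0.055 in the highest. The regulators with ratios above 0 had a GC content of 43.1 to 46.1%, and those below 0 had 44.3 to 62.9%. With the trend removed, Gsk3a, Mbd3 and Zfp281 turned to the other side of 0, at 0.013, 0.027 and -0.001. Again none of the 9 was called, beside 144 of the 18198 genes tested.

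Among the 87 tested genes of the partner lists outside the 9 regulators, 4 were called, 1 higher in B and 3 lower, beside 2.29% of all genes tested. Aes was lower in B, at a log2 ratio of -0.13 (adjusted p = 4.29e-05, exact binomial test), as were Tfeb at -0.21 (adjusted p = 0.0101) and Ppp2r1a at -0.073 (adjusted p = 0.0172). Tnks2 was higher in B at 0.061 (adjusted p = 0.0138). With the GC trend removed none of these 4 was called, at adjusted p = 0.0584 for Aes, 0.423 for Tfeb, 0.646 for Ppp2r1a and 0.509 for Tnks2 by the same exact test. Nor was any called by edgeR at the preset coefficient of variation. Of all 18198 genes tested, 144 were called with the trend removed and 1 by edgeR. The median log2 ratio of these partner genes was -0.0076, and their median level was 40.0 TPM, beside 9.47 TPM over all genes tested. Of the naive targets Klf2 was lower in B at -0.14 (adjusted p = 2.72e-06, exact binomial test). Klf2 has a GC content of 61.6%, and its outcome by edgeR or with the GC trend removed is not given here.

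By list, the test called 1 of 15 genes of TCF/LEF factors and co-factors, 2 of 20 of β-catenin turnover, 1 of 22 of the folliculin list and 1 of 12 naive targets, beside 2.29% of all genes tested. Of the marker lists it called 3 of 8 ES cell markers and 4 of 10 fibroblast markers. The ES cell markers called were Dppa5a at a log2 ratio of 0.071 (adjusted p = 6.14e-20, exact binomial test) and Tdgf1 at 0.051 (adjusted p = 0.00325), both higher in B, and Utf1, lower at -0.22 (adjusted p = 2.64e-25). The test called 0 of 5 adhesion genes, 0 of 17 NuRD genes, 0 of 10 of the Zfp281 list, 0 of 11 formative genes and 0 of 7 other exit regulators. In these last lists an unadjusted p under 0.05 from the exact binomial test was found for 1 adhesion gene, 7 NuRD genes, 2 genes of the Zfp281 list, 1 formative gene and 1 other exit regulator, beside 2250 of the 18198 genes tested (12.4%). edgeR at the preset coefficient of variation called 0 of the partner genes, and neither Dppa5a nor Tdgf1, beside 1 of the 18198 genes tested. For Utf1, with a GC content of 63.5%, the outcome by edgeR is not given here. Nor is that of these 3 markers with the GC trend removed. The exact test calls smaller differences in genes with more reads. ES cell markers had 9393 (Utf1 in A) to 101702 (Dppa5a in B) reads a library. The 2.29% and 12.4% cover genes from 10 reads up, and no share at like depth is given here.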

How the data were processed

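The authors deposited 1 file a library with read counts per Ensembl gene that were not normalized. Trizol RNA went into TruSeq libraries by a protocol that marks strand, per the labels. STAR 2.4.2a, featureCounts 1.4.5-p1 and mm10 are named, without roles, per the submitters' processing notes. For the annotation release, strand setting and multi-mapping reads the choice is not stated. All values were whole numbers.

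Symbols, positions and exon lengths were taken from GENCODE M21 on GRCm38, the same build. Of the 43629 IDs 97.5% matched, and the 1081 others held 0.163% of counts. CPM used TMM factors (edgeR 4.0.16, R 4.3.3) over genes with at least 10 reads, and TPM the union of annotated exons. Intervals are exact Poisson (counts) or exact binomial (ratios). The reads of B were tested against A by a two-sided exact binomial test (Python 3.11.15, scipy 1.17.1) over genes with at least 10 reads, with Benjamini-Hochberg adjustment. Log2 ratios add 0.5 reads to each count. The test was tried on simulated Poisson counts. These held no spread between libraries beyond counting error, so they cannot show how it behaves where there is such spread.

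The genes, lists and tests were chosen with earlier results of these data known. Named are the 9 regulators, their paralogs, the 4 highest and 2 lowest genes of each list by TPM, listed genes that were called, and Drosha. Pygo2, Axin1, Fnip1, Fnip2 and Tfe3 were added outside this rule, after their values were seen, to stand beside a named gene. Pou3f1 and Sall2 were added likewise, as low genes of the formative list. Of the genes the rule takes, 2 are not reported here. The list symbol Tle5 had no match, and Aes is its older name. In place of protein identity, which was planned, the longest identical run of coding bases is given. Seed matches were searched in the 3′ UTR of 1 transcript a gene. Alternatives were scaling by total counts or by DESeq2 1.42.0 size factors, other read filters, edgeR in an exact test at a preset coefficient of variation of 0.1, removal of the GC trend (20 bins), other CPM limits, totals without mitochondrial genes, the longest transcript as length, and each library alone.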

Additional observations from a re-analysis of the deposited data

How the results depend on the processing

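None of the 9 regulators was called under any of the 7 alternatives to the comparison of the libraries. Over all genes the 417 calls became 1 with edgeR at a preset coefficient of variation of 0.1 and 144 (107 higher in B, 37 lower) with the GC trend removed, and the 4 calls among partner genes became 0 under both. The other settings gave 360 to 463 calls. The split depended on scaling: 56.8% of calls were higher in B, 42.7% with total counts (180 higher, 242 lower) and 67.2% with TMM over all genes of the files (311 and 152), a setting chosen after seeing the data. With the GC trend removed, 3 log2 ratios changed sign: Gsk3a (0.0126), Zfp281 (-0.001) and Mbd3 (0.0269). The median of the 9 was 67.9 TPM with the longest transcript as length, against 83.7. Leaving out 1 library gave medians of 83.4 and 84.0 TPM, kept 7 to 9 regulators at their rank, and left 86 to 87 of 88 partner genes at 1 CPM. At 0.5 and 5 CPM these were 87 and 84. No paired analysis was possible because both libraries belong to 1 group. Depth limits the detection of genes with few reads, such as Tfec and Apc2, and not that of the 9 regulators. It does bear on whether the exact test calls a regulator. Tcf7l1 (log2 ratio -0.092) and Gsk3b (0.090) were not called, while Ppp2r1a (-0.073) and Tnks2 (0.061), which had more reads, were. With 1 library a side, the comparison of B with A holds no measure of the spread among replicates within a side.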
